A study of Homo sapiens with 2 samples.

Results

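The proteasome genes described here are the rows of the deposited expression table whose symbol is PSM followed by a letter from A to G and a number. The rule found 52 of 20323 rows, carrying 48 distinct symbols. Of these, 48 rows are single genes and 4 are readthrough genes, annotated units that join a proteasome gene to its neighbour and carry its symbol (PSMA1, PSMA2, PSMB10 or PSMD9). The table's own KEGG annotation places 46 of the 52 rows on the proteasome pathway, which holds 50 genes in all. The others on that pathway are SEM1, ADRM1 and POMP, described with the associated proteins below, and IFNG, which had a count of 0 in both libraries.

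The study measured polyadenylated RNA in MDA-MB-231 cells, a mesenchymal-like line from a triple-negative breast cancer. The cells had received either a negative-control small interfering RNA (siRNA) or an siRNA that knocks down HNRNPF, and the stated question was how that knockdown affects gene expression. HNRNPF encodes an RNA-binding protein of the heterogeneous nuclear ribonucleoprotein family with roles in splicing and polyadenylation. The comparison holds 1 library per group, so no difference has a replicate check, no p-value was computed, and higher and lower refer to these 2 libraries. All cells come from 1 cell line, and the siRNA sequences, the dose and the time after transfection were not among the sources used here.

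The libraries were of similar depth, with 20654622 estimated counts and 14656 genes above 0 in the control and 20134572 and 14768 after HNRNPF siRNA. HNRNPF itself went from 6373 counts to 2451, which gives a log2 ratio of -1.37 with an exact 95% interval from -1.44 to -1.30. Intervals here cover counting error only, because 1 library per group gives no spread between replicates. Reads from PCR without molecular identifiers do not each stand for 1 molecule, so the intervals may also be too narrow. The mesenchymal markers VIM, CD44, ZEB1 and AXL were all expressed. PGR had no count in either library, ESR1 had 3 and 8 counts, and ERBB2 had 1160 and 1236 counts. FOXA1, listed with them as absent or low in a triple-negative line, was expressed, with 76 and 95 counts. None of 5 haematopoietic markers was expressed, with CD3E at 0 in both libraries. Of 4 fibroblast markers 1 was expressed, COL1A1, with COL1A2 at 0. Of 4 endothelial markers 2 were expressed, KDR and PECAM1, with VWF at 0 and a summed level of 6.35 CPM (counts scaled to 1e6 per library) in the control and 4.43 CPM after HNRNPF siRNA. The luminal keratins KRT8 and KRT18 were expressed, as was EPCAM, with 34 and 47 counts, and CDH1 had 3 and 0 counts.

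The proteasome degrades proteins that carry ubiquitin chains. Its 20S core is a barrel with outer rings of alpha subunits (PSMA genes), which form the gate, and inner rings of beta subunits (PSMB genes), of which PSMB5, PSMB6 and PSMB7 carry the active sites. Interferon-gamma induces the replacement subunits PSMB8, PSMB9 and PSMB10, which form the immunoproteasome and alter the peptides made for HLA class I. The 19S cap holds a ring of ATPases (PSMC genes), which unfold substrates, and non-ATPase subunits (PSMD genes), which bind and remove ubiquitin. Other activators (PSME genes) can take the place of the cap, and PSMG chaperones assemble the core. Many cancer cells, triple-negative breast cancer lines among them, are known to depend on proteasome function.

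Proteasome transcripts stayed close to their control level. Of the 52 rows, 47 were expressed, meaning a mean of at least 1 CPM over both libraries after scaling. Their median log2 ratio, HNRNPF siRNA over control, was -0.03, against 0.00 over the 12071 expressed genes with a count in both libraries. The lowest was -0.29, for PSMA5, and the highest 0.52, for the readthrough gene AC010132.3. The median absolute log2 ratio was 0.10 in the members, 0.15 over all expressed genes and 0.13 over those at 10 CPM or more. Summed over the 46 expressed single genes, 145663 counts stood against 138623 counts (log2 ratio -0.06, 95% interval -0.07 to -0.05). In bulk RNA, fewer cells of a kind and less RNA per cell cannot be told apart.

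At 1.2-fold, 3 of 47 members were higher (AC010132.3, PSMG4 and PSMG3), where 14.5% of all expressed genes were. At the same threshold 2 were lower (PSMA5 and PSMA4), where 12.5% of all expressed genes were. These counts depend on the processing. With library totals no member was 1.2-fold lower, with DESeq2 size factors PSMB10 and PSMD5 joined PSMA5 and PSMA4, and in FPKM PSMD7 alone was lower. PSMG3 was the only higher member left without genes whose reads were divided or whose symbol was shared. No member was 1.5-fold higher or lower, against 3.06% and 2.65% of all expressed genes, and none differed 2-fold, against 0.654% higher and 0.464% lower. The counting interval lay above a ratio of 1 for 8 members, where it did for 21.4% of all expressed genes, and below it for 15 members, where it did for 24.5%. By any amount, 29 members were lower and 18 higher, where 50% of all expressed genes were lower and 50% higher.

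**Figure D1:**
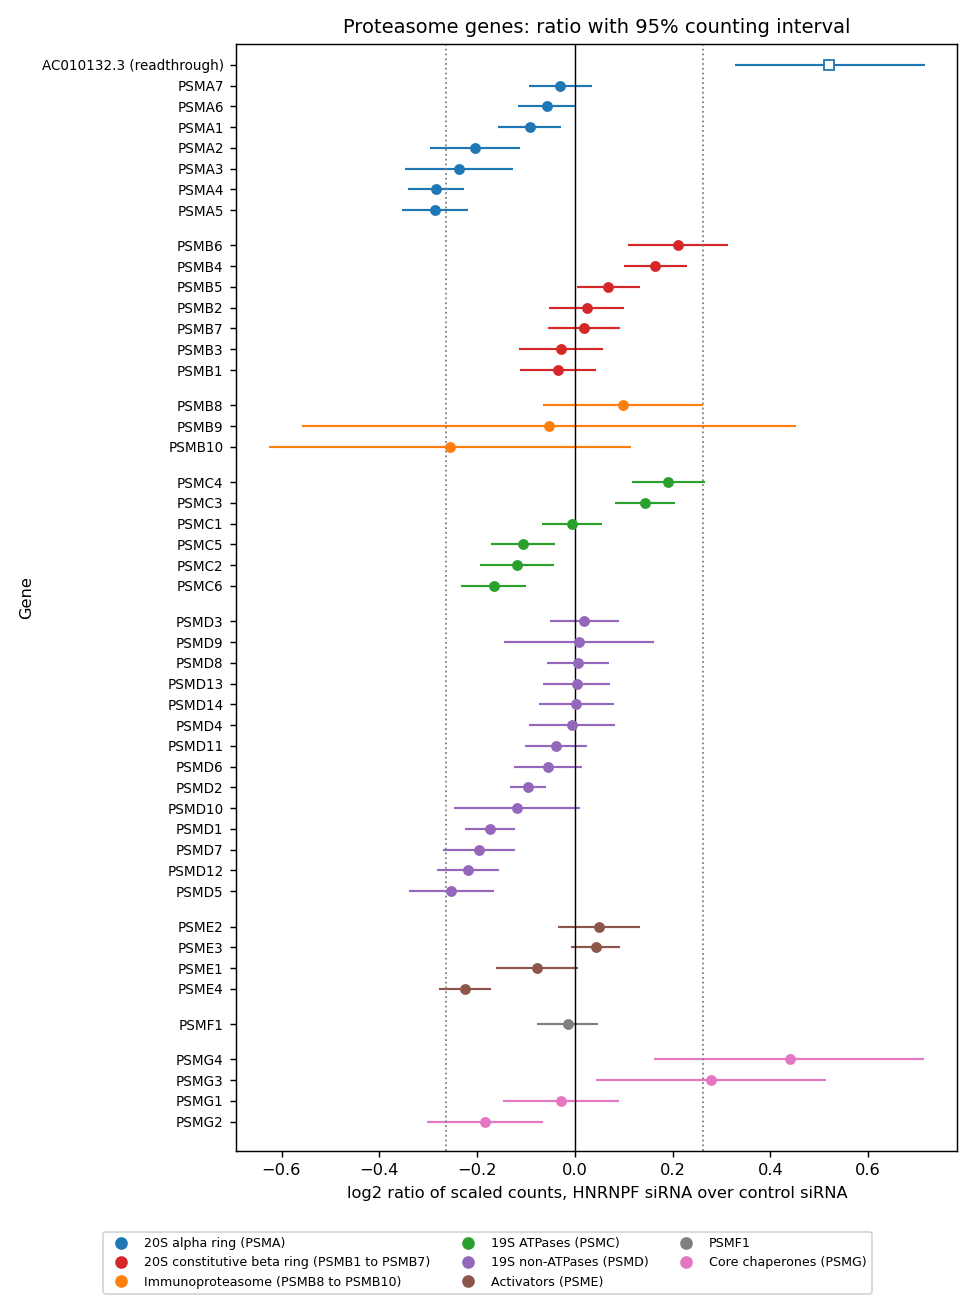
Log2 ratio of scaled counts, HNRNPF siRNA over control siRNA (x axis), for each of the 47 expressed proteasome members (y axis), coloured by class. Bars are exact 95% counting intervals and dotted lines mark 1.2-fold. The 7 single-gene alpha subunits all sit below 0, from -0.29 to -0.03, while the 7 constitutive beta subunits run from -0.03 to 0.21, and the open square is the readthrough gene over PSMA2.

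The alpha ring lay below control as a class. All 7 expressed single-gene PSMA members were lower, where 50% of all expressed genes were, and the median log2 ratio was -0.20. Of the 7 intervals 5 lay below a ratio of 1, where 24.5% of those of all expressed genes did. PSMA5 (ENSG00000143106, GRCh38 chromosome 1, 109399031 to 109426427, minus strand), the alpha5 subunit, had 3970 control counts and 3232 after HNRNPF siRNA, 1.22-fold lower (log2 ratio -0.29, 95% interval -0.35 to -0.22). PSMA4 (chromosome 15, 78540405 to 78552419, plus strand), the alpha3 subunit, whose N-terminal tail helps close the gate, had 5480 and 4464 counts (log2 ratio -0.28, 95% interval -0.34 to -0.23). These were the only 2 members past 1.2-fold lower.

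PSMA3, the alpha7 subunit, had 1453 and 1223 counts, a log2 ratio of -0.24. PSMA2, the alpha2 subunit, had 2054 and 1769 counts, a log2 ratio of -0.20, with some reads divided between genes by the authors' counting. PSMA1, the alpha6 subunit, was nearer to control at -0.09. PSMA6 (alpha1, -0.06) and PSMA7 (alpha4, -0.03) had intervals that reach or cross a ratio of 1. Summed over the ring, 25744 counts stood against 22864 (log2 ratio -0.16, 95% interval -0.19 to -0.13). PSMA8, a testis form of alpha4, had a count of 0 in both libraries, which allows up to 3 counts in each.

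The constitutive beta ring, PSMB1 to PSMB7, lay near control or above it. Of its 7 genes 5 were higher and 2 lower, where 50% of all expressed genes were higher, and the median log2 ratio was 0.02. Of the 7 intervals 3 lay above a ratio of 1, where 21.4% of those of all expressed genes did. Summed counts were 19721 in the control and 20414 after HNRNPF siRNA (log2 ratio 0.06, 95% interval 0.03 to 0.09). That interval and the alpha ring's do not overlap, a difference that has no replicate check and that was singled out after the values were seen. PSMB6, the beta1 subunit with caspase-like activity, was the highest of the ring, with 1477 and 1696 counts (log2 ratio 0.21, 95% interval 0.11 to 0.31). PSMB4, the structural beta7 subunit, had 3735 and 4155 counts (log2 ratio 0.16, 95% interval 0.10 to 0.23). Once the trend of all genes with GC content and length was removed, PSMB6 and PSMB4 both lay at 0.08, below those intervals. The ring then had 4 genes higher and 3 lower.

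PSMB5, the beta5 subunit with chymotrypsin-like activity and the main target of bortezomib, had 3866 and 4023 counts, a log2 ratio of 0.07 with an interval from 0.00 to 0.13. PSMB7, the trypsin-like beta2 subunit, had 2961 and 2977 counts, a log2 ratio of 0.02 with an interval across a ratio of 1. All 3 catalytic subunits were thus at or above control. The structural PSMB2, PSMB3 and PSMB1 lay at 0.02, -0.03 and -0.03 on the log2 scale, each with an interval across a ratio of 1.

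The immunoproteasome subunits were expressed at low levels and none had an interval clear of a ratio of 1. PSMB8, the beta5i subunit, had 593 and 630 counts (log2 ratio 0.10, 95% interval -0.07 to 0.26). PSMB9, the beta1i subunit, had 70 and 67 counts (log2 ratio -0.05, 95% interval -0.56 to 0.45). PSMB10, the beta2i subunit, had 136.87 and 113.73 estimated counts (log2 ratio -0.26, 95% interval -0.63 to 0.11). The last value is less certain, since reads were divided between genes. PSMB8 and PSMB9 overlap at their ends on opposite strands of chromosome 6 (PSMB8 ends at 32844703 and PSMB9 starts at 32844136). The sources used here do not give whether counting used strand, so reads from that overlap cannot be told apart.

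The level of each immuno form was read against its constitutive partner in FPKM, fragments scaled to transcript length and library size. PSMB8 stood at 24.4 FPKM in the control, 13.5% of the 180 FPKM of PSMB5, and at 13.6% in the HNRNPF siRNA library. PSMB10 stood at 4.64% of PSMB7 in the control and 3.85% after HNRNPF siRNA. PSMB9 stood at 4.0% of PSMB6 in the control and 3.20% after knockdown. In both libraries the constitutive subunit was thus the main form at each active site by transcript level. PSMB11, the thymic beta5t form, had a count of 0 in both libraries, which allows up to 3 counts in each.

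**Figure D2:**
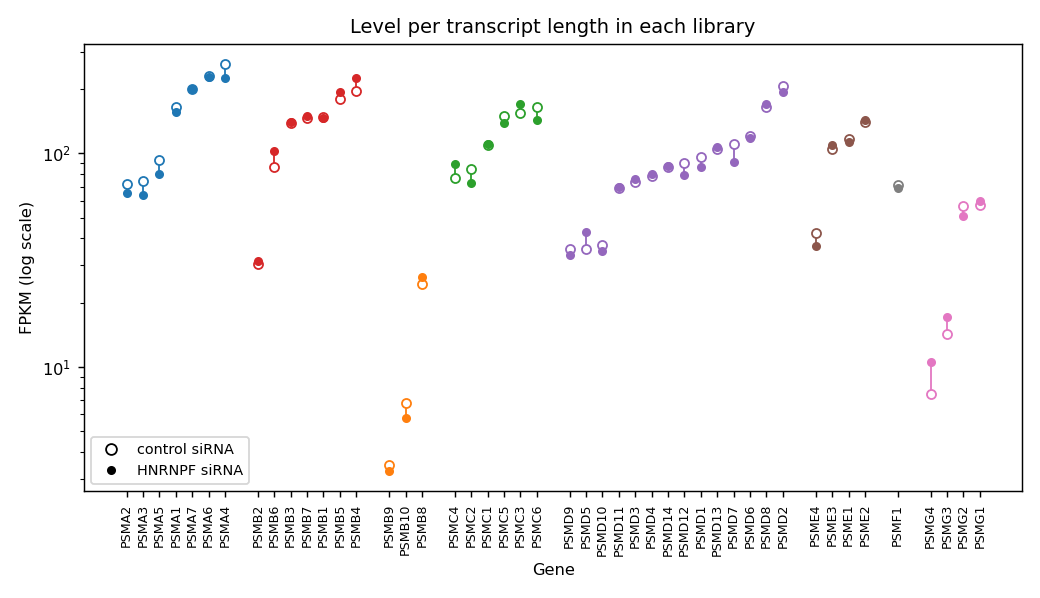
FPKM, a level per transcript length (y axis, log scale), of the 46 expressed single-gene members (x axis), grouped by class and ordered by control level within a class. Open points are the control siRNA library and filled points the HNRNPF siRNA library. PSMB9, PSMB10 and PSMG4 lie lowest, at or below 10.6 FPKM in both libraries, and PSMA4 highest in the control at 261 FPKM.

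In the 19S cap 13 of 20 genes were lower and 7 higher, where 50% of all expressed genes were lower, and the median log2 ratio was -0.05. The ATPase ring held both directions. PSMC4 (Rpt3) had 2728 and 3091 counts (log2 ratio 0.19, 95% interval 0.12 to 0.27), and PSMC3 (Rpt5) had 4172 and 4573 counts, a log2 ratio of 0.14. PSMC6 (Rpt4) was lowest, with 3949 and 3492 counts (log2 ratio -0.17, 95% interval -0.23 to -0.10). PSMC2 (Rpt1) and PSMC5 (Rpt6) lay at -0.12 and -0.11, and PSMC1 (Rpt2) at -0.01. Over the ring 22056 counts stood against 21753 (log2 ratio -0.01, 95% interval -0.04 to 0.02), so the summed ring did not move beyond counting error while its members spread on both sides.

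Of the 14 PSMD genes 9 were lower and 5 higher, where 50% of all expressed genes were lower, and the highest was PSMD3 at 0.02. Of the 14 intervals 5 lay below a ratio of 1, where 24.5% of those of all expressed genes did. None lay above it, where 21.4% did. An interval narrows as counts rise, so genes with many counts clear a ratio of 1 more easily. PSMD12 (Rpn5), a subunit of the lid, had 4383 and 3740 counts (log2 ratio -0.22, 95% interval -0.28 to -0.15). PSMD7 (Rpn8), the partner of the lid's deubiquitinase, had 3263 and 2827 counts (log2 ratio -0.20, 95% interval -0.27 to -0.12). PSMD1 (Rpn2), a scaffold of the base, lay at -0.17 and PSMD2 (Rpn1), the other large scaffold, at -0.10. PSMD14 (Rpn11), the deubiquitinase itself, had 2780 and 2764 counts, a log2 ratio of 0.00. The ubiquitin receptor PSMD4 (Rpn10) lay at -0.01, and PSMD3, PSMD6, PSMD8, PSMD11 and PSMD13 lay between -0.05 and 0.02. Over the class, 53297 counts stood against 49751 (log2 ratio -0.09, 95% interval -0.11 to -0.07).

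PSMD5, PSMD9 and PSMD10 carry PSMD symbols but act as chaperones of the cap's base. PSMD9 had 696 and 695 counts, a log2 ratio of 0.01, and PSMD10 (gankyrin) had 1030 and 942 counts, a log2 ratio of -0.12 with an interval across a ratio of 1. PSMD5 (S5b; chromosome 9, 120815496 to 120842984, minus strand), which in excess is known to hold back assembly of the 26S particle, was the lowest PSMD gene. Its counts were 2387 in the control and 1988 after HNRNPF siRNA (log2 ratio -0.25, 95% interval -0.34 to -0.17).

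PSMD5 pointed the other way in FPKM, with 35.9 in the control and 43.0 after HNRNPF siRNA, a log2 ratio of 0.26, the same as the log2 fold change in the authors' deposited table. Counts and FPKM differ by the transcript length that the authors' quantification used, so that length can be read back from both. It was 3.22 kb in the control and 2.29 kb after HNRNPF siRNA, 1.41-fold shorter (log2 difference -0.49). In the other 41 members with at least 500 counts in both libraries the log2 difference in length lay between -0.07 and 0.13. Of 7047 genes at that depth, 21 (0.298%) had a length difference at least as large in either direction. In GENCODE release 29, PSMD5-201 is 3443 bases long with 10 exons and a 3' UTR of 1853 bases, and PSMD5-203 is 1538 bases long with 9 exons and a 3' UTR of 110 bases. Which transcripts gave the reads was not tested, since the table holds 1 value per gene. The direction for PSMD5 thus depends on whether counts or FPKM are read.

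**Figure D3:**
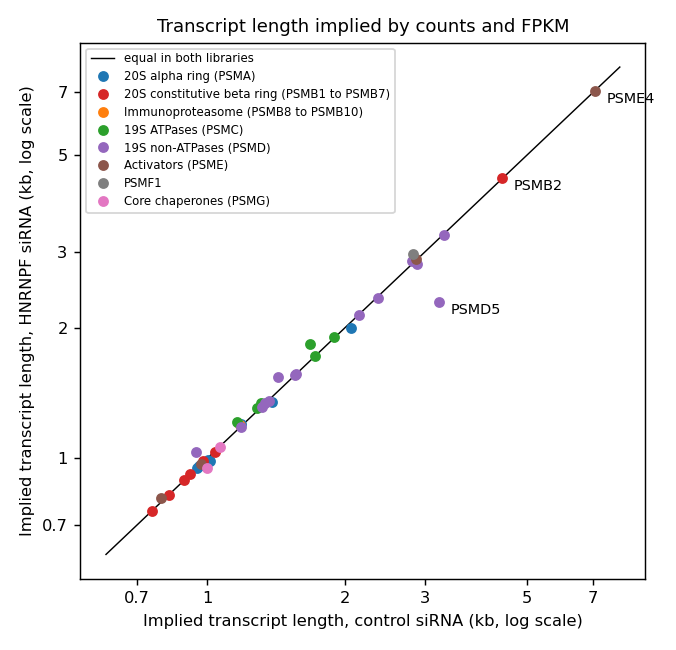
Transcript length implied by counts and FPKM, in kb on log axes, in the control siRNA library (x axis) and the HNRNPF siRNA library (y axis), for the 42 single-gene members with at least 500 counts in both. The line marks equal lengths. PSMD5 lies below it, at 3.22 kb against 2.29 kb, while the other members lie within -0.07 to 0.13 of it on the log2 scale.

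Among the activators, PSME4 (PA200), a nuclear activator linked to histone degradation, was lowest, with 6173 and 5240 counts (log2 ratio -0.23, 95% interval -0.28 to -0.17). PSME1 and PSME2, which together form the interferon-inducible PA28 alpha-beta ring, had 2335 against 2196 counts and 2291 against 2353 counts. Their log2 ratios were -0.08 and 0.05, both with intervals across a ratio of 1. PSME3 (PA28 gamma), the nuclear form, had 6198 and 6334 counts, a log2 ratio of 0.04 with an interval from -0.01 to 0.09. PSMF1 (PI31), first described as an inhibitor of the core, had 4161 and 4087 counts, a log2 ratio of -0.01. Only PSME4 of these 5 genes had an interval clear of a ratio of 1. The median of the 4 PSME genes was -0.02.

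The PSMG chaperones act in pairs when the core is built, PSMG1 with PSMG2 and PSMG3 with PSMG4. PSMG4 (PAC4; chromosome 6, 3231403 to 3303373, plus strand) had 191.59 and 258.01 estimated counts, 1.36-fold higher (log2 ratio 0.44, 95% interval 0.16 to 0.71), the highest single-gene member. Its reads were partly divided between genes, so the value is less certain. PSMG3 (PAC3) had 276 and 332 counts, 1.21-fold higher (log2 ratio 0.28, 95% interval 0.04 to 0.51), but it was at 0.17, short of 1.2-fold, once the trend of all genes with GC content and length was removed, and at 0.26 in FPKM. PSMG1 (PAC1) had 1178 and 1146 counts, a log2 ratio of -0.03, and PSMG2 (PAC2) had 1242 and 1085 counts (log2 ratio -0.18, 95% interval -0.30 to -0.07). Both genes of the less abundant pair were thus higher, and neither gene of the other pair was. The class median was 0.12, but it was -0.03 without PSMG4 and -0.03 when PSMD5, PSMD9 and PSMD10 were counted as chaperones. Summed counts were 2888 and 2821 (log2 ratio -0.02, 95% interval -0.10 to 0.05).

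Of the 4 readthrough rows only AC010132.3 (chromosome 7, 42909273 to 42932174, minus strand) was expressed. It had 375.30 and 534.03 estimated counts, 1.43-fold higher (log2 ratio 0.52, 95% interval 0.33 to 0.72). It overlaps PSMA2, at -0.20, and C7orf25, which had 237.70 and 133.88 estimated counts, a log2 ratio of -0.82. The 3 overlapping genes share reads, so the division of counts among them is uncertain. AC018523.2 over PSMA1 had 4.19 and 9.17 counts, and AC040162.1 over PSMB10 had 5.13 and 9.27 counts, both below the expression minimum. AC069503.2 over PSMD9 had a count of 0 in both libraries, which allows up to 3 counts in each.

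The ratios of the members varied with the base composition of their transcripts. GC content was taken from the principal protein-coding transcript of each gene in GENCODE release 29. Over the 46 single-gene members the Spearman correlation of the log2 ratio with GC was 0.64, and over 12021 expressed genes it was 0.27. It was 0.85 over the 14 constitutive core genes and 0.82 over the 20 cap genes. All points come from the same 2 libraries, and neither genes nor subunits are independent replicates. Of the 23 members below the members' median GC, 20 were lower in the HNRNPF siRNA library, and the median log2 ratio was -0.12. Of the 23 at or above it, 9 were lower, with a median of 0.01.

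PSMA5 and PSMA4, the lowest members, have 37.2% and 42.1% GC, while PSMB6 and PSMC4 have 54.9% and 55.2%. Across all expressed genes the median log2 ratio ran from -0.10 in the bin near 36.3% GC to 0.12 in the bin near 63.1%. After the trend of all expressed genes with GC and length was removed, the alpha ring was still lower in 7 of 7 genes, with a median of -0.16. The beta ring was higher in 4 and lower in 3. Lower values were not particular to the alpha ring. The PSMD genes were lower in 12 of 14, the activators in 4 of 4 and the ATPases in 3 of 6. Of the 46 single-gene members 33 were lower, with a median of -0.07. Over all expressed genes 6082 were then lower and 5939 higher. The correlation over the 46 members was then 0.31. For 12 of the 46 members, PSMA4 and PSMA5 among them, the principal transcript is over 1.5 times longer (10) or shorter (2) than the length implied by counts and FPKM, so its GC content may not be that of the RNA measured. Over the other 34 members the correlation with GC, computed after the data were seen, was 0.60. The part of base composition in these ratios was not tested beyond this correction.

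**Figure D4:**
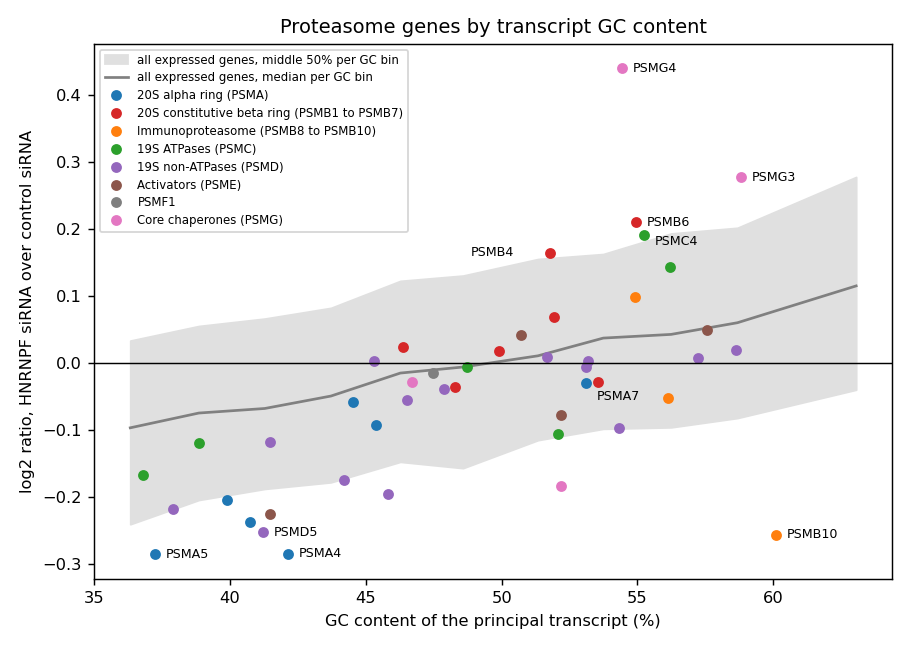
Log2 ratio, HNRNPF siRNA over control siRNA (y axis), against the GC content of the principal transcript in percent (x axis) for the 46 expressed single-gene members, coloured by class. The grey line and band are the median and the middle 50% of all expressed genes in each GC bin. The members follow the rise of the grey line, from -0.29 for PSMA5 at 37.2% GC to 0.44 for PSMG4, with PSMB10 below it at 60.1%.

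Promoter sequence was examined because proteasome genes are known to be induced together by NFE2L1 (NRF1), which binds antioxidant response elements. The core searched was TGACNNNGC, on both strands, in RefSeq promoter windows of GRCh38.p14 that run from 250 bases before to 50 bases after a gene's start. It was present in 15 of the 40 expressed members that had a window (37.5%) in 1897 of 9759 expressed genes with a window (19.4%), and in 4384 of all 27305 genes with a window (16.1%). Of the 15 members, 11 were lower and 4 higher. Of all 46 expressed single-gene members 29 were lower, and 50% of all expressed genes were. The median log2 ratio was -0.08 in the 15 members with the core, against -0.04 in the 25 members without it. The sites of the 3 lowest and the 3 highest of the 15 members are printed, from genes that lay on both sides of control. They read 5' to 3' on the gene's strand, with the core or its reverse complement in capitals. The search itself fixed what the capitals share, so that likeness is not a result.
PSMA4 (chr15:78540652-78540676, plus strand, log2 ratio -0.28): gggcacgaTGACTCTGCaccgcctc
PSMD5 (chr9:120843040-120843064, minus strand, log2 ratio -0.25): gctacagtTGACACGGCcctaacgg
PSME4 (chr2:53971011-53971035, minus strand, log2 ratio -0.23): cggcggctGCAGCGTCAccagcaga
PSMD3 (chr17:39980762-39980786, plus strand, log2 ratio 0.02): ccctttgtTGACTCGGCcatcggcc
PSME2 (chr14:24146769-24146793, minus strand, log2 ratio 0.05): ctggactgTGACCCAGCcagcaccg
PSMC4 (chr19:39971184-39971208, plus strand, log2 ratio 0.19): agaggccgGCTTGGTCActatggag
In PSME4 and PSMC4 the core reads on the other strand. PSMD3 holds a further match in its window. A match is a run of letters, and whether any factor binds there was not tested.

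The heptamer GGAAGAA was counted in 3' UTRs because an earlier pass over these libraries had singled it out among all genes. It was present in the principal transcript's 3' UTR in 3 of 46 expressed members (6.52%) and in 2394 of 11900 expressed genes (20.1%). These shares are not corrected for UTR length. The median principal transcript was 1579 bases long in the expressed members and 3266 over all expressed genes. A shorter sequence holds a match less often, so the lower share cannot be read as depletion. The 3 sites printed are all the matches found in the members' principal 3' UTRs, with the heptamer in capitals, on GRCh38.
PSMA5 (chr1:109400645-109400671, minus strand, log2 ratio -0.29): ggaaacatttGGAAGAAagggattttg
PSMC2 (chr7:103368655-103368681, plus strand, log2 ratio -0.12): aaattaatcaGGAAGAAttagtgattt
AC010132.3 (chr7:42910639-42910665, minus strand, log2 ratio 0.52): cagaaaacctGGAAGAAgttgttagtg
The carriers that are single genes, PSMA5 and PSMC2, both lay below control. The carrier above control was the readthrough gene AC010132.3. Its site lies outside PSMA2 (42916857 to 42932223) and within the span of C7orf25 (42908726 to 42912305), which had a log2 ratio of -0.82. Reads are shared among these overlapping genes, so the value of 0.52 for AC010132.3 is uncertain. In the other 43 members with a 3' UTR, that of the principal transcript has no match. Other annotated transcripts of some of these members, PSMA4-204 and PSMD10-204 among them, do have a match in their 3' UTR. For PSMA4, PSMA5 and PSMC2 the principal transcript is over 1.5 times longer than the length implied by counts and FPKM. Its 3' UTR may thus not be that of the RNA measured.

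Proteins that work with the proteasome were described from a list of 17 genes, all expressed. Of these 8 were higher and 9 lower, and the median log2 ratio was -0.04. UBE3C, a proteasome-bound ubiquitin ligase, had 4971 and 4095 counts, a log2 ratio of -0.27. It was the only 1 of the 17 past 1.2-fold, where 12.5% of all expressed genes were 1.2-fold lower and 14.5% higher. ZFAND5, which activates the particle, had 3207 and 2708 counts, a log2 ratio of -0.23. SEM1 (DSS1), the small lid subunit, was highest, with 768 and 875 counts, a log2 ratio of 0.20. PAAF1, another chaperone of the base, had 327 and 354 counts, a log2 ratio of 0.13 with an interval across a ratio of 1. The core maturation factor POMP lay at 0.00 and the ubiquitin receptor ADRM1 (Rpn13) at 0.02.

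Of 12 genes that encode or act on regulators of proteasome transcription, 3 were higher and 9 lower, with a median of -0.08. Over all expressed genes 50% were lower. NFE2L1 itself had 5301 and 5568 counts (log2 ratio 0.08, 95% interval 0.03 to 0.14). DDI2, the protease that cleaves NFE2L1 into its active form, had 1286.34 and 1527.63 estimated counts, a log2 ratio of 0.26. NGLY1, the glycanase that edits NFE2L1, had 1008 and 733 counts (log2 ratio -0.45, 95% interval -0.59 to -0.31). MAFG, a partner in DNA binding, had 1811 and 1365 counts (log2 ratio -0.40, 95% interval -0.50 to -0.29). SYVN1, a ligase that degrades NFE2L1, lay at 0.11 with an interval across a ratio of 1, and it was lower in FPKM, with 21.2 in the control and 18.6 after HNRNPF siRNA. NGLY1 and MAFG were past 1.2-fold lower, 2 of the 12 genes, where 12.5% of all expressed genes were. They thus lay further from control than any single proteasome subunit that was lower.

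Among ubiquitin genes and activating enzymes, RPS27A, which encodes ubiquitin fused to a ribosomal protein, had 8527 and 9917 counts (log2 ratio 0.23). UBB, a polyubiquitin gene, lay at -0.05 and UBA1, the main activating enzyme, at -0.08. Of 8 genes that work with the VCP segregase, which extracts proteins for the proteasome, 4 were higher and 4 lower. UFD1 (0.24) and UBXN1 (0.17) were highest, and FAF2 (-0.20) and UBXN4 (-0.19) lowest.

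Of 14 genes of the HLA class I pathway and the interferon response, which the immunoproteasome serves, 11 were lower and 3 higher. Over all expressed genes 50% were lower. The median log2 ratio of the 14 was -0.14. At 1.2-fold 4 of the 14 were lower, where 12.5% of all expressed genes were, and 0 higher, where 14.5% were. IRF1, a transcription factor that induces immunoproteasome genes, had 533 and 358 counts (log2 ratio -0.56, 95% interval -0.76 to -0.37). NLRC5, the class I transactivator, had 207 and 163 counts (log2 ratio -0.33, 95% interval -0.64 to -0.03). ERAP1, which trims peptides, and HLA-C were highest, at 0.14 and 0.08. PSMB8 lay at 0.10, PSMB9 at -0.05 and PSMB10 at -0.26, and the lower bounds of PSMB9 and PSMB10 were -0.56 and -0.63.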

How the data were processed

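Polyadenylated RNA was captured on oligo(dT) beads and made into 1 library per group, per the labels' protocols. GRCh38, RSEM, HISAT2, StringTie 1.3.1 and fastp 0.18.0 are named in the submitters' processing notes, with no order. The sources used here do not give whether counting used strand. The deposited table holds estimated counts (not whole in 11.6% and 12.0% of genes, at a tolerance of 1e-06), FPKM, and the authors' own log2 fold change, taken from their FPKM. Its p-value column, from a test that the authors' headers do not name, was not used. The column named si848 stands for the HNRNPF siRNA library here, since the table's name sets control against HNRNPF siRNA and the other column carries the control's name.

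TMM factors of 0.991 and 1.01 (edgeR 4.0.16, R 4.3.3) and intervals used estimated counts rounded to whole numbers, and ratios the unrounded counts. The log2 ratio of CPM was taken with an exact Clopper-Pearson 95% interval of the count split (scipy 1.17.1), which limits the precision by depth alone. The ratio and its interval were checked on counts simulated with counting error alone. That check does not cover divided reads or spread between replicates. A gene was expressed at a mean of 1 CPM over both libraries, which says nothing about the members below it. No test between groups was run, for want of replicates. Transcript sequence came from GENCODE release 29, with GC content and length for 99.6% of expressed genes, and promoters from RefSeq. Protein sequences were not used here. Implied length is the count divided by FPKM and by the library total, on the scale of 1e6.

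Genes given in full were the extreme members overall and per class, the catalytic subunits, all PSME and PSMG genes, PSMF1, PSMD5, PSMD9 and PSMD10, and from each other list the 2 highest and the 2 lowest genes. Other genes were named after their values were seen. Some genes that the rule selects are not named here. The members and lists were chosen with earlier results of these data known. Alternatives were library totals, DESeq2 1.42.0 size factors, FPKM with 0.1 added, minimums of 10 CPM or none, omission of genes with divided reads, removal of a quadratic GC and length trend, and classing by role; leaving out the readthrough genes was added after the data were seen.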

Additional observations from a re-analysis of the deposited data

How the results depend on the processing

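None of the 5 members reported past 1.2-fold changed sign in any setting. The count of members at least 1.2-fold lower, 2 as reported, was 0 with library totals, 4 with DESeq2 size factors, 1 with FPKM and 1 with the GC and length trend removed. The count at least 1.2-fold higher, 3 as reported, was 5 with no expression minimum, where readthrough genes with few counts entered, 1 without genes whose reads were divided or whose symbol was shared, and 2 with the trend removed, where PSMG3 fell short at 0.17. With the trend removed the median of the activators, -0.02 as reported, was -0.10, and that of the immunoproteasome, -0.05 as reported, was -0.21, below the alpha ring's -0.16. The causes were not tested. All 47 members kept their value within their own counting interval with library totals or DESeq2 size factors, 42 did with FPKM and 31 with the trend removed. PSMD5, at -0.25 as reported and 1.2-fold lower with DESeq2 size factors, moved to 0.26 in FPKM and took the place of PSMG3 among those 1.2-fold higher, and in FPKM PSMA5 and PSMA4 moved to -0.21 and -0.22. With the trend removed PSMB10 was the only member past 1.2-fold lower. The median of all expressed genes lay between -0.01 and 0.03 in every setting run. The alpha ring had no gene above control under any of them, while 4 to 6 of 7 beta ring genes were higher. With few counts, PSMB9, PSMB10, PSMG3 and PSMG4 have the widest intervals. No paired analysis was possible because each group holds 1 library.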
